A study of Mus musculus with 6 samples.

Results

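Microglia are the resident macrophages of the retina. They arise from the yolk sac rather than from retinal progenitor cells, and they engulf dying cells and synapses during development. C1q, the recognition molecule that opens the classical complement pathway, is built from chains encoded by *C1qa*, *C1qb* and *C1qc*, and in nervous tissue microglia are its main source. The genes described here are 9 named genes of these cells and of this pathway: *C1qa*, *C1qb* and *C1qc*; *Csf1r* and *Cx3cr1*, which encode surface receptors; *Cd68* and *Ctss*, which encode lysosomal proteins; *Tyrobp*, which encodes a signalling adaptor; and *Aif1*, which encodes the cytoplasmic protein IBA1. They were chosen by symbol, and 5 of the 9 (*C1qb*, *C1qc*, *Csf1r*, *Cx3cr1* and *Ctss*) are among the 11339 genes of the table. The levels of *C1qa*, *Cd68*, *Tyrobp* and *Aif1* were not analysed here.

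RNA was compared between 3 *Mll1KO* and 3 WT libraries of P14 retina, with 2 retinas pooled in each. The *Mll1KO* genotype is MLL1 fl/fl with Chx10-Cre, a transgene active in retinal progenitor cells, and WT mice are C57Bl6/J, the strain label that both groups share. MLL1, encoded by *Kmt2a*, is a histone H3 lysine 4 methyltransferase. Microglia are not descendants of the cells in which Chx10-Cre is active, and whole retina holds them among many other cells. The libraries held 23836033 (a), 19777205 (b) and 19323512 (c) reads for WT and 23348923 (a), 19855963 (b) and 17961097 (c) for *Mll1KO*. Levels are given as RPKM, in which reads are divided by gene length and library total. Fold changes are on the log2(RPKM + 1) scale, which understates the change of weakly expressed genes, and a gene was called at a limma adjusted p under 0.05 across all 11339 genes.

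The targeted gene *Kmt2a* had an RPKM of 36.1, 36.9 and 34.6 in WT libraries a, b and c and of 22.9, 20.4 and 22.3 in *Mll1KO* libraries a, b and c. The groups did not overlap, and *Kmt2a* was lower by a log2 value of -0.69 ± 0.05 (standard error or SE, limma adjusted p = 2.8e-05).

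None of the 5 microglia and C1q genes was called in *Mll1KO* (0 of 5 by limma, 0 of 5 at an unadjusted p under 0.05, and 0 of 5 by limma-voom). Of all genes 23.3% were called, 8.81% as higher and 14.5% as lower. In 0 of 5 did the groups separate, against 41.1% of all genes. The median log2 fold change of the 5 was 0.03 and that of all genes -0.03. With 3 libraries per genotype the 95% confidence intervals of the 5 fold changes lay between -0.28 and 0.32 on the log2 scale. In whole tissue, fewer cells of a type and less RNA per cell cannot be told apart.

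*C1qb* encodes the B chain of C1q. Its RPKM was 6.83, 7.06 and 7.23 in WT libraries a, b and c and 5.90, 6.06 and 7.22 in *Mll1KO* libraries a, b and c. Samples a and b of *Mll1KO* lay below every WT sample, while sample c lay within the WT range. The log2 fold change was -0.12 (95% interval -0.28 to 0.03, limma adjusted p = 0.229). Without *Mll1KO* sample c it was -0.20 and was called (limma adjusted p = 0.0495, against a range of 0.000458 to 0.485 over the alternatives).

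*C1qc* encodes the C chain and moved the other way in its mean. It had 3.63, 3.43 and 3.32 RPKM in WT libraries a, b and c and 3.55, 3.81 and 4.53 RPKM in *Mll1KO* libraries a, b and c. *Mll1KO* samples b and c lay above every WT sample, and *Mll1KO* sample a inside the WT range. The log2 fold change was 0.15 (95% interval -0.02 to 0.32, limma adjusted p = 0.179).

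*Csf1r* encodes the receptor for CSF1 and IL-34, on which microglia depend for survival. It stood at 4.66, 4.36 and 4.47 RPKM in WT libraries a, b and c and at 4.36, 5.10 and 4.35 RPKM in *Mll1KO* libraries a, b and c. *Mll1KO* sample b stood above the WT range, and samples a and c lay just below the lowest WT sample, b, sample a by less than the printed digits show. The log2 fold change was 0.03 (95% interval -0.12 to 0.17, limma adjusted p = 0.813), and it was -0.04 without *Mll1KO* sample b. Of its exon bases 15.1% are shared with *Hmgxb3* on the other strand, and whether reads were counted by strand is not given in the sources used here.

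*Cx3cr1* encodes the receptor for fractalkine, a ligand that neurons display. Its RPKM was 1.97, 2.35 and 1.69 in WT libraries a, b and c, and 1.96, 2.38 and 2.17 in *Mll1KO* libraries a, b and c. The WT samples covered most of the range of the 6 libraries. The log2 fold change was 0.08 (95% interval -0.11 to 0.27, limma adjusted p = 0.522).

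*Ctss* encodes cathepsin S, a lysosomal protease of macrophages. Levels of 9.61, 8.64 and 8.04 RPKM were found in WT libraries a, b and c, and of 7.70, 9.72 and 7.91 RPKM in *Mll1KO* libraries a, b and c. The highest and the lowest of the 6 libraries were both *Mll1KO*. The log2 fold change was -0.05 (95% interval -0.25 to 0.14, limma adjusted p = 0.712).

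**Figure D1:**
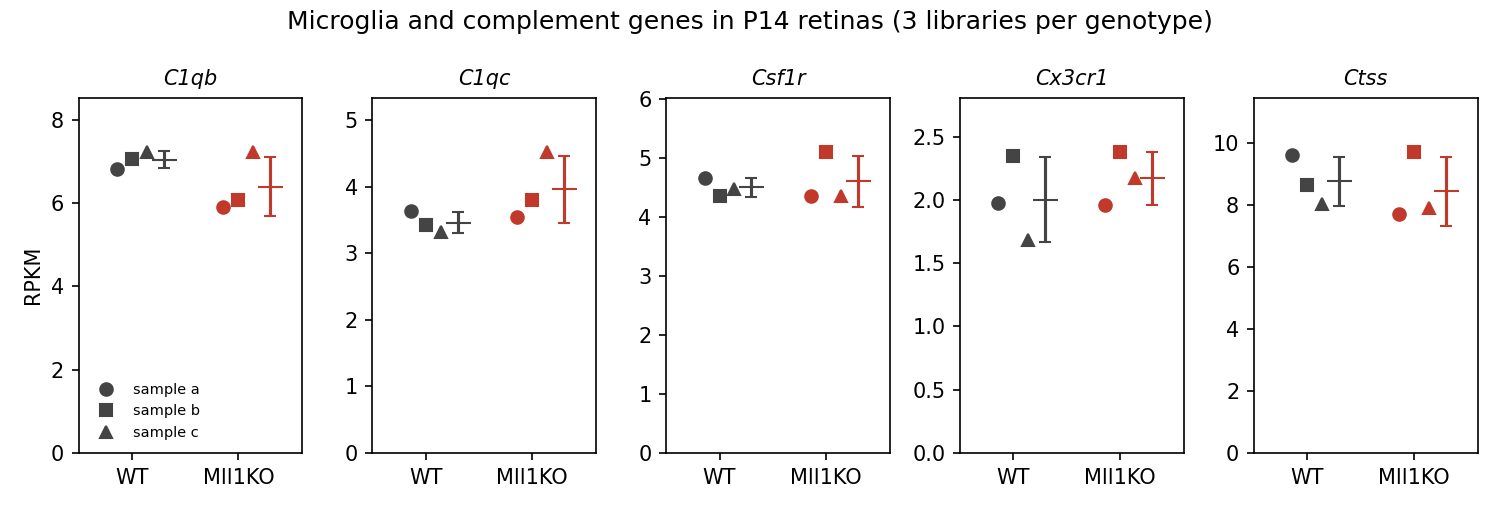
RPKM of 5 microglia and C1q genes in 3 WT (grey) and 3 *Mll1KO* (red) libraries at P14. Points are libraries, with circles, squares and triangles for samples a, b and c, and bars give the mean and SD; the WT and *Mll1KO* points overlap in every panel.

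The mean level of each of the 5 genes lay below the median of all genes. Their mean RPKM over the 6 libraries was 2.09 for *Cx3cr1*, 3.71 for *C1qc*, 4.55 for *Csf1r*, 6.72 for *C1qb* and 8.60 for *Ctss*, against a median of 9.41 over all genes. The order was the same in 6 of 6 libraries for each neighbouring pair except *C1qc* and *Csf1r*, which kept it in 5 of 6. Between 122 and 543 reads lay on each gene in each library. In *Mll1KO* the replicate SD exceeded counting error for each gene. It was 11.2% of the mean for *C1qb* (8.43% from counting alone), 12.8% for *C1qc* (8.05%), 9.37% for *Csf1r* (4.67%), 9.79% for *Cx3cr1* (7.79%) and 13.1% for *Ctss* (6.55%). In WT it was 2.89% for *C1qb* (7.90% from counting alone), 4.47% for *C1qc* (8.43%), 3.44% for *Csf1r* (4.65%), 16.6% for *Cx3cr1* (7.97%) and 9.03% for *Ctss* (6.31%). Summed over the 5 genes, RPKM was 26.7, 25.8 and 24.8 in WT libraries a, b and c and 23.5, 27.1 and 26.2 in *Mll1KO* libraries a, b and c, and the groups overlapped.

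A ratio between genes within a library does not depend on how libraries are scaled. The ratio of *C1qb* to *C1qc* was 1.88, 2.06 and 2.18 in WT libraries a, b and c and 1.66, 1.59 and 1.59 in *Mll1KO* libraries a, b and c, so that the groups did not overlap. This pair was singled out after its values were seen. It was the single pair without overlap among the 10 pairs that the 5 genes form, and its values are given as a description. Among single genes 41.1% were without overlap, which is a share of levels, and the share among ratios of all gene pairs was not computed. Each library held between 124 and 177 reads on either gene. In GRCm38 both genes lie on the minus strand of chromosome 4, *C1qb* (ENSMUSG00000036905) from 136880129 to 136886187 and *C1qc* (ENSMUSG00000036896) from 136889804 to 136893065, and *C1qa* follows from 136895917 to 136898803.

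Promoter windows of 300 bases from RefSeq (GRCm38.p6) were found for 4 of the 5 genes and searched on both strands for GAGGAAGT, a form of the site of the macrophage factor PU.1, for TGAGTCA (AP-1) and for the ETS-IRF composite element. GAGGAAGT was found in the windows of *C1qc* and *Ctss*, and in 3.20% of all 32851 windows. The windows of *C1qb* and *Cx3cr1* held no match, and that of *Cx3cr1* begins 1333 bases inside the gene as GENCODE annotates it, so that it does not cover the start of the annotated gene. TGAGTCA, present in 5.20% of all windows, and the ETS-IRF composite element, present in 2.72%, were found in none of the 4. The windows of *Cd68* and *Aif1* were searched as well, and that of *Cd68* held 2 matches to TGAGTCA and 1 to the ETS-IRF composite element, while that of *Aif1* held none of the motifs. The windows of *C1qb* and *C1qc* are shown because these neighbours encode chains of the same protein, and that of *Ctss* because it holds a match. They lie at chr4:136886151-136886450 (minus strand, *C1qb*), chr4:136892865-136893164 (minus strand, *C1qc*) and chr3:95526536-95526835 (plus strand, *Ctss*), and capitals mark GAGGAAGT on the opposite strand. A match is a run of letters and was not tested for binding.
C1qb: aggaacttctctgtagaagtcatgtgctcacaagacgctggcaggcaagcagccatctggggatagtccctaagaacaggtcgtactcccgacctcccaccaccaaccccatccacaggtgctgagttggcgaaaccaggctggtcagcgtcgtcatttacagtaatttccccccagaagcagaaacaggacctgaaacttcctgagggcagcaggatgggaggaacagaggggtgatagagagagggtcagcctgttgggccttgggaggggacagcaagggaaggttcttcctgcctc
C1qc: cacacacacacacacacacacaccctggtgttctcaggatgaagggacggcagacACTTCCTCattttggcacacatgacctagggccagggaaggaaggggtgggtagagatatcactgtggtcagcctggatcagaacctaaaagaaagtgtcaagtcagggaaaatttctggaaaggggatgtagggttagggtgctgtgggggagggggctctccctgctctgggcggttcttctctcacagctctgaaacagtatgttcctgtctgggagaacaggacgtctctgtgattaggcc
Ctss: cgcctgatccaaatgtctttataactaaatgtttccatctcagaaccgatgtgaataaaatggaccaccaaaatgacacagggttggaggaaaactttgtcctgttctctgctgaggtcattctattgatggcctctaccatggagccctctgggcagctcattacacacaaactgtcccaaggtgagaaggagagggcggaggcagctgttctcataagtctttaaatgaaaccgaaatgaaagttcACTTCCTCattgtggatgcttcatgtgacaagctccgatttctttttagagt

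Few other microglia genes could be followed. The authors kept genes that passed 5 CPM in 5 or more libraries. With 3 libraries per genotype, a gene that passed only in *Mll1KO* was not listed. An unlisted gene, here and in the lists below, is therefore not shown to be absent or unchanged. Of 26 further microglia and macrophage genes 3 were listed. *Olfml3*, which encodes a secreted glycoprotein, was lower in *Mll1KO* (log2 fold change -0.33, limma adjusted p = 0.0119), and *Laptm5*, which encodes a lysosomal membrane protein of blood cells, was not called (-0.04, limma adjusted p = 0.697). Of 7 perivascular macrophage markers 1 was listed, *Lyve1*, at -0.22 (limma adjusted p = 0.0328). That call was lost with TMM, RLE or upper-quartile factors, with the replicate letter as a block, and without any 1 library other than *Mll1KO* sample c. The highest limma adjusted p among these was 0.0888. Of 10 blood leukocyte markers 0 were listed.

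Ligands through which neurons and glia address microglia were mostly listed, 10 of 11, of which 1 was called higher and 1 lower. Their median log2 fold change was 0.09. *Cx3cl1*, which encodes the CX3CR1 ligand fractalkine, had 24.3, 21.4 and 21.8 RPKM in WT libraries a, b and c and 29.0, 28.5 and 27.7 RPKM in *Mll1KO* libraries a, b and c. Every *Mll1KO* library exceeded every WT library, and the log2 fold change was 0.33 ± 0.05 (SE, limma adjusted p = 0.00203). *Tgfb2*, which encodes a TGF-β ligand, was lower (-0.22, limma adjusted p = 0.0109). The CSF1R ligands, named for their receptor after their values were seen, were not called, with *Csf1* at 0.08 (limma adjusted p = 0.351) and *Il34* at 0.16 (limma adjusted p = 0.0986).

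Of 22 genes of complement activation beyond C1q, 1 was listed, *Cfp*, which encodes properdin. It was not called (-0.11, limma adjusted p = 0.458), and without *Mll1KO* sample a it was -0.25 and was called (limma adjusted p = 0.0126). Among complement regulators and receptors 13 of 23 were listed, 5 called higher and 1 lower, with a median log2 fold change of 0.14. *Cd59a*, which encodes an inhibitor of the membrane attack complex, had 3.17, 4.08 and 4.34 RPKM in WT libraries a, b and c and 5.68, 7.34 and 8.24 RPKM in *Mll1KO* libraries a, b and c (log2 fold change 0.73 ± 0.12 as SE, limma adjusted p = 0.00266). *Clu* (0.68, limma adjusted p = 0.000111) and *Vtn* (0.60, limma adjusted p = 2.53e-05) encode clusterin and vitronectin, fluid-phase inhibitors of the same complex. *Serping1*, which encodes the C1 inhibitor, was higher by 0.27 (limma adjusted p = 0.041), a call lost without WT sample a or b or *Mll1KO* sample b or c, with limma adjusted p up to 0.138. *Sez6l* was lower (-0.23, limma adjusted p = 0.00771). *Clu* is also a Müller glia marker, and the part of other cells in these levels was not tested.

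**Figure D2:**
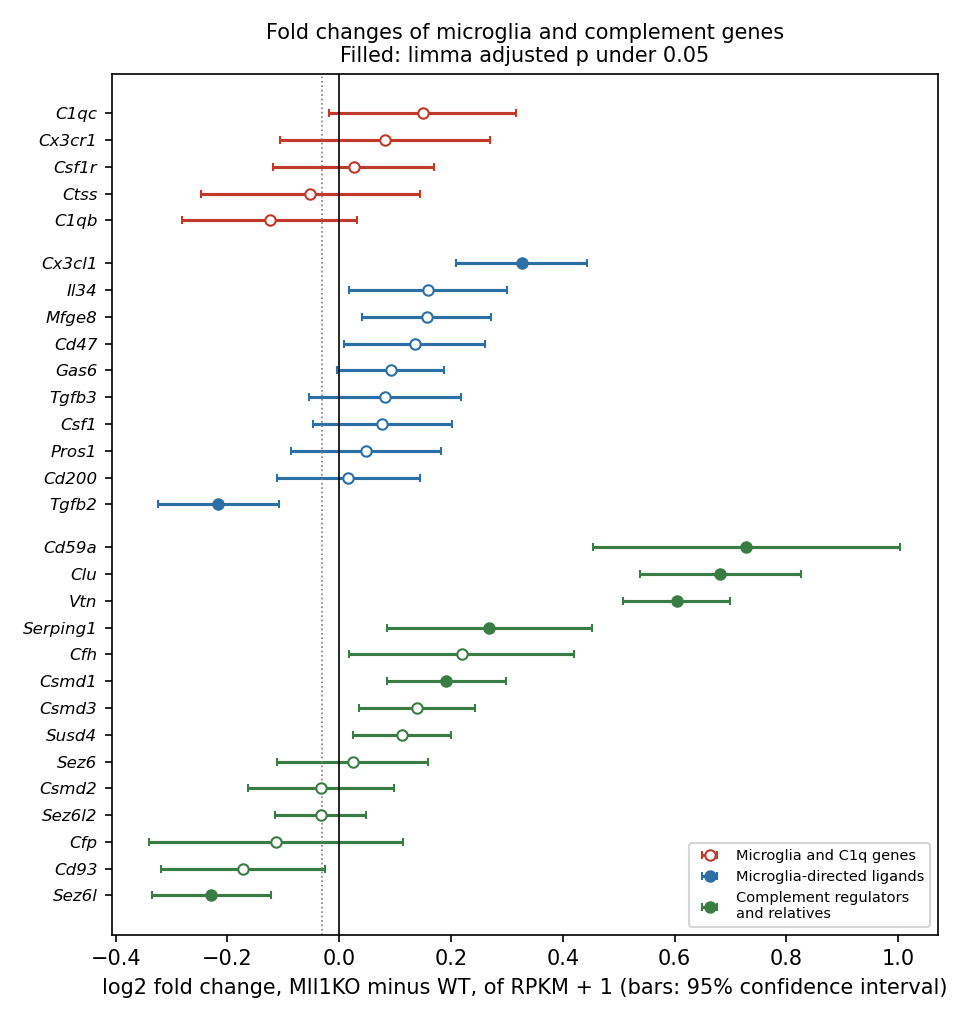
Log2 fold change (*Mll1KO* minus WT, on RPKM + 1) with its 95% confidence interval for microglia and C1q genes, ligands of microglia, and complement genes, 3 libraries per genotype. Filled points were called by limma; the solid line is at 0 and the dotted line at the median of all genes, -0.03, and the 5 microglia and C1q intervals all include 0.

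Of 12 genes related to C1q, 8 were listed, 3 called higher and 2 lower. Among the 8, *C1qbp* encodes a C1q-binding protein without the C1q domain and was not called. The higher genes were *C1ql3* (0.42, limma adjusted p = 0.001), *C1ql2* (0.35, limma adjusted p = 0.00612) and *Cbln2* (0.32, limma adjusted p = 0.00931), which encode secreted synaptic proteins. *Cbln1* (-0.41, limma adjusted p = 0.00669) and *C1qtnf6* (-0.36, limma adjusted p = 0.0109) were lower.

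Lysosome and phagocytosis genes were listed in 27 of 28 cases, with 7 called higher, 2 lower and a median of 0.06. *Tyro3*, which encodes a receptor tyrosine kinase of the TAM family, was highest (0.71, limma adjusted p = 0.00111), followed by *Cst3* (0.36, limma adjusted p = 0.00176), which encodes the cathepsin inhibitor cystatin C. *Psap*, which encodes prosaposin, was higher by 0.20 (limma adjusted p = 0.0159), a call lost without WT sample b or *Mll1KO* sample b or c, with limma adjusted p up to 0.0646. *Itgb5* (-0.45, limma adjusted p = 0.000358) and *Lamp1* (-0.19, limma adjusted p = 0.0102) were lower. Of 14 genes of reactive microglia 8 were listed, 1 called higher and 2 lower. *Apoe* was higher (0.33, limma adjusted p = 0.00691) and is a Müller glia marker as well. *Fabp5* was lower (-0.44, limma adjusted p = 0.00273), as was *Lpl* (-0.27, limma adjusted p = 0.02), whose call was lost without WT sample a or c or *Mll1KO* sample a or b, with limma adjusted p up to 0.0691.

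*Gpnmb*, on the same list, had 23.0, 2.98 and 28.2 RPKM in WT libraries a, b and c and 3.32, 10.3 and 3.65 RPKM in *Mll1KO* libraries a, b and c. It was not called (-1.21, limma adjusted p = 0.214), and without WT sample b it was -2.12 and was called (limma adjusted p = 0.00463). The libraries that were high in it were also high in *Pmel*, a pigment cell gene, at 57.1, 15.1 and 99.4 RPKM in WT libraries a, b and c and 9.37, 34.0 and 11.0 RPKM in *Mll1KO* libraries a, b and c. Of 8 markers of retinal pigment epithelium 3 were listed and 0 called, *Ttr* being the most abundant, and their summed RPKM was 153, 85.8 and 228 in WT libraries a, b and c and 73.3, 144 and 74.8 in *Mll1KO* libraries a, b and c. Leaving out 1 library changed this, as *Pmel* was called without WT sample b (-2.23, limma adjusted p = 0.0123) or *Mll1KO* sample b (-2.03, limma adjusted p = 0.0451), and *Ttr* without *Mll1KO* sample b (-0.54, limma adjusted p = 0.0313). The part of these cells in the level of *Gpnmb* was not tested.

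Inflammatory genes were sparsely listed, and a gene that passed the 5 CPM filter only in *Mll1KO* would not be among those listed. Of 26 cytokine and NF-κB genes 6 were listed, with *Nfkbia*, which encodes an inhibitor of NF-κB, higher (0.29, limma adjusted p = 0.00851) and *Vcam1*, which encodes an adhesion molecule, lower (-0.55, limma adjusted p = 0.0018). Of 24 interferon response and MHC genes 10 were listed, with *Irf7* (0.49, limma adjusted p = 0.00575) and *Tapbp* (0.31, limma adjusted p = 0.00396) higher and 0 lower.

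Markers of other cells were counted in the same fit. Müller glia markers were called higher in 7 and lower in 1 of 13, and rod markers higher in 14 and lower in 1 of 19. Astrocyte markers were called higher in 4 of 5 (*Gfap* 0.97, limma adjusted p = 4.26e-05). The astrocyte marker *Pdgfra* was not called (0.16, limma adjusted p = 0.0969), and 1 of the 6 named was not listed. The part of Müller glia in the levels of the astrocyte markers was not tested. Vascular endothelium markers were called higher in 2 and lower in 3 of 10 (*Kdr* -0.73, limma adjusted p = 0.000115), red blood cell markers in 0 of 4, and housekeeping genes higher in 1 and lower in 2 of 10. The summed RPKM of red blood cell markers was 101, 80.9 and 207 in WT libraries a, b and c and 134, 178 and 212 in *Mll1KO* libraries a, b and c. Without WT sample c *Hbb-bs*, the most abundant, was called (0.97, limma adjusted p = 0.008).

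The scaling of the libraries matters for a group of genes without a call. Of 2643 called genes 37.8% were higher, and with TMM factors 51.9% of 2420 were, while 0 of the 5 microglia and C1q genes were called with either. Giving every library the same summed RPKM of rod genes, which are mostly higher here, shifted the median of all genes to -0.31. On that scale *C1qb* (-0.40, limma adjusted p = 0.000458), *Ctss* (-0.34, limma adjusted p = 0.00192) and *Csf1r* (-0.24, limma adjusted p = 0.00437) were called lower, *C1qc* was at -0.10 and *Cx3cr1* at -0.14, and 86.9% of all genes were called. Of the other genes named as higher, *Cx3cl1*, *Serping1*, *C1ql3*, *C1ql2*, *Cbln2*, *Cst3*, *Apoe* and *Tapbp* were no longer called on that scale, and the signs of *Psap* and *Nfkbia* turned.

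Over the 6 libraries, Pearson r between pairs of the 5 genes ran from -0.44 (*C1qb* and *Csf1r*) to 0.83 (*Csf1r* and *Ctss*). The genes whose levels were most like the mean z-score of the 5 were *Armcx5* (Pearson r = 0.989), *Ppp2r2b* (0.979), *Gopc* (0.963), *Vopp1* (0.962) and *Lpcat4* (0.960). They are the highest of 11250 genes searched, of which 35 had an r above 0.9, and the values describe these 6 libraries only.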

How the data were processed

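Retinas at P14 from 3 *Mll1KO* and 3 WT samples were sequenced as 50-base single reads. Per the submitters' processing notes, the authors aligned reads with STAR 2.0.4b to mm10, counted them per gene with featureCounts 1.45, kept genes that passed 5 CPM in 5 or more libraries, and deposited RPKM. The deposited fold changes, p-values and FDR of the authors' edgeR comparison were not used. The table held 11404 lines for 11339 genes, 59 gene IDs standing in more than 1 line, and 18 symbols turned into dates were restored. Library totals were recovered from RPKM as the values that give whole reads for genes at their annotated length. For each gene, a length giving whole reads within 0.01 reads in all libraries was then sought. Such a length was found for 100% of genes, and it was the annotated length for 53.4% of genes matched to the annotation. Of the reads 98.4% to 98.5% lay on listed genes. Counting error covers reads, not molecules.

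As the design assumed RPKM, log2(RPKM + 1) was compared with limma 3.58.1 with a variance trend, with genotype as the single term and Benjamini-Hochberg adjustment over all genes. The fit was tested on simulated reads. The members and the 19 lists were chosen with earlier results of these data known. Named genes were the members, *Kmt2a*, the top and bottom fold change of each list with up to 3 further called genes in each direction, and the 5 genes most like the members. This rule gives 63 genes before the last 5, and some are not described, 1 of them because it is not reported here. Alternatives were limma-voom on recovered reads, TMM, RLE, upper-quartile and rod-gene scaling, pseudocounts of 0.1 and 5, a mean RPKM of at least 1, the replicate letter as a block, and each library left out. Annotation was GENCODE vM21 (GRCm38), matching 11323 gene IDs. RefSeq promoter windows run from 250 bases before a gene start to 50 from it on; 60.4% sit so at the start in RefSeq's gene table, and others may rest on another transcript. That of *C1qc* begins 228 bases before this start and 99 before the GENCODE gene. Software was R 4.3.3 for the fits, and matplotlib 3.10.9, pandas 2.3.3 and numpy 2.4.6 under Python 3.11.15.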

Additional observations from a re-analysis of the deposited data

How the results depend on the processing

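The count of 2643 called genes stayed within 1.5 times under every alternative except rod-gene scaling (9849 genes) and the fits without WT sample b (1704) or *Mll1KO* sample c (1757), and ranged from 1704 to 2536 with 1 library left out; those fits have fewer samples. The count of microglia and C1q genes called was 0 under each alternative except rod-gene scaling (3) and without *Mll1KO* sample c (1), so that leaving out 1 library gave 0 to 1. Signs turned under rod-gene scaling for *C1qc* (-0.10), *Csf1r* (-0.24), *Cx3cr1* (-0.14), *Psap* (-0.12), *Nfkbia* (-0.01), *Csf1* (-0.10) and *Il34* (-0.10), as that scale lowers the median of all genes to -0.31. With 1 library left out, the sign of *Csf1r* turned (-0.04 to 0.06), and so did that of *Ctss* (-0.15 to 0.01), at 0.01 without WT sample a and 0.0047 without *Mll1KO* sample a; the cause was not tested. With the replicate letter as a block 2242 genes and 0 of the 5 were called, and *Lyve1* was not (-0.22, limma adjusted p = 0.0582). Deviations of samples with the same letter correlated at -0.04 (a), -0.19 (b) and -0.01 (c), so that no pairing by letter was seen. They are deviations from means of 3 libraries, and whether libraries with the same letter were handled together is not known. The 5 genes had between 122 and 543 reads per library, and their spread between libraries exceeded what counting alone gives for 5 of 5 in *Mll1KO* and for 2 of 5 in WT.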
